A study of Mus musculus with 45 samples.

Results

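The 39 genes described here repair DNA double-strand breaks and DNA crosslinks by homologous recombination and the Fanconi pathway, or signal such damage to the cell cycle. They were picked by symbol from the 55450 genes of the expression table, with earlier results of these data known, and all 39 were found in it. They were placed in 5 groups by their known role. These were 12 mediators of homologous recombination, 5 genes of junction dissolution and RecQ helicases, 10 Fanconi pathway genes, 5 nucleases and nuclease partners, and 7 break sensors and checkpoint kinases.

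Homologous recombination copies the lost sequence from the sister chromatid, so it works mainly after a cell has begun to replicate its DNA. BRCA1 and its partners help to cut back one strand at the break, BRCA2 and its helpers prepare the bared strand for invasion, RAD54 proteins drive the search for the matching sequence, and helicases and nucleases part the joined molecules afterwards. The Fanconi pathway calls on the same machinery where a crosslink stops a replication fork, and ATR with CHEK1 and ATM with CHEK2 slow the cell cycle meanwhile. Germinal center B cells divide very fast while activation-induced deaminase damages their antibody genes, and the breaks of class switching are mostly closed by a different route, end joining.

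RNA was sequenced from cells sorted from the popliteal dLN of WT and S1PR4-/- mice of 8 to 12 weeks, both sexes, after footpad immunization with 20 µl of an emulsion of 50 µg OVA and 5 µg LPS in IFA. B cells were taken on day 9, as GC B cells (B220+ GL7+ Fas+) or non-GC B cells (B220+ GL7- Fas-). CD4+ T cells were taken on day 6, as TFH cells (PD1+ CXCR5+) or non-TFH cells (PD1- CXCR5-). Each group had 6 samples, but there were only 5 WT and 4 S1PR4-/- samples of non-GC B cells. The S1PR4-/- mice (strain B6.129P2-S1pr4tm1Dgen/J) carry the disrupted allele in all cells of the animal, on a C57/BL6 background after no fewer than 10 generations of crossing. The WT mice were littermates, and mice of both genotypes were immunized. The populations of one lineage thus came from immunized nodes on one day, and no unimmunized cells were compared.

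Libraries held between 26299429 and 45548215 expected counts, the number of reads that a model assigns to each gene. S1pr4 was at 505 to 6305 counts in the 23 WT samples and at 0 to 40 in the 22 S1PR4-/- samples. The sorts held their defining genes. The summed level of 6 TFH markers ran from 2041 to 3173 CPM (counts scaled to a common library size with TMM factors) in TFH samples and from 157 to 400 CPM in non-TFH samples, while 6 germinal center B cell markers summed to 1248 to 2161 CPM in GC B samples and 136 to 189 CPM in non-GC B samples. GC B and TFH cells were sorted from 6 WT and 6 S1PR4-/- mice, but the labels do not tie samples to animals, so p-values measure the spread between these samples. In bulk RNA, fewer cells that express a gene and less RNA per cell cannot be told apart.

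In WT B cells, 27 of the 39 genes were higher in GC B than in non-GC B cells and 1 was lower, with an FDR below 0.05 and more than a 1.5-fold difference by edgeR's quasi-likelihood test. Of all 13324 genes tested there, 47.8% passed the same thresholds, 3298 of them higher. In WT T cells, 25 were higher in TFH than in non-TFH cells and 2 were lower. Of all 13481 genes tested there, 43.2% passed, 3079 of them higher. The median log2 fold change of the 39 genes was 1.26 in B cells and 1.38 in T cells, and that of all genes tested was 0.00 in both. The S1PR4-/- cells gave 31 higher and 1 lower in B cells, where 48.2% of all genes passed, 3411 of them higher. In T cells they gave 27 higher and 0 lower, where 43.4% of all genes passed, 2985 of them higher. The same 24 genes were higher in all 4 comparisons, a count that was not made over all genes. Of 8982 genes tested in both WT comparisons and with a promoter listed in RefSeq, 1077 were higher in both. Of the genes described here, 19 of the 30 with such a promoter were higher in both. The 5 genes that passed in none of the 4 comparisons were Rmi1, Mus81, Rad50, Atm and Trp53bp1.

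**Figure D1:**
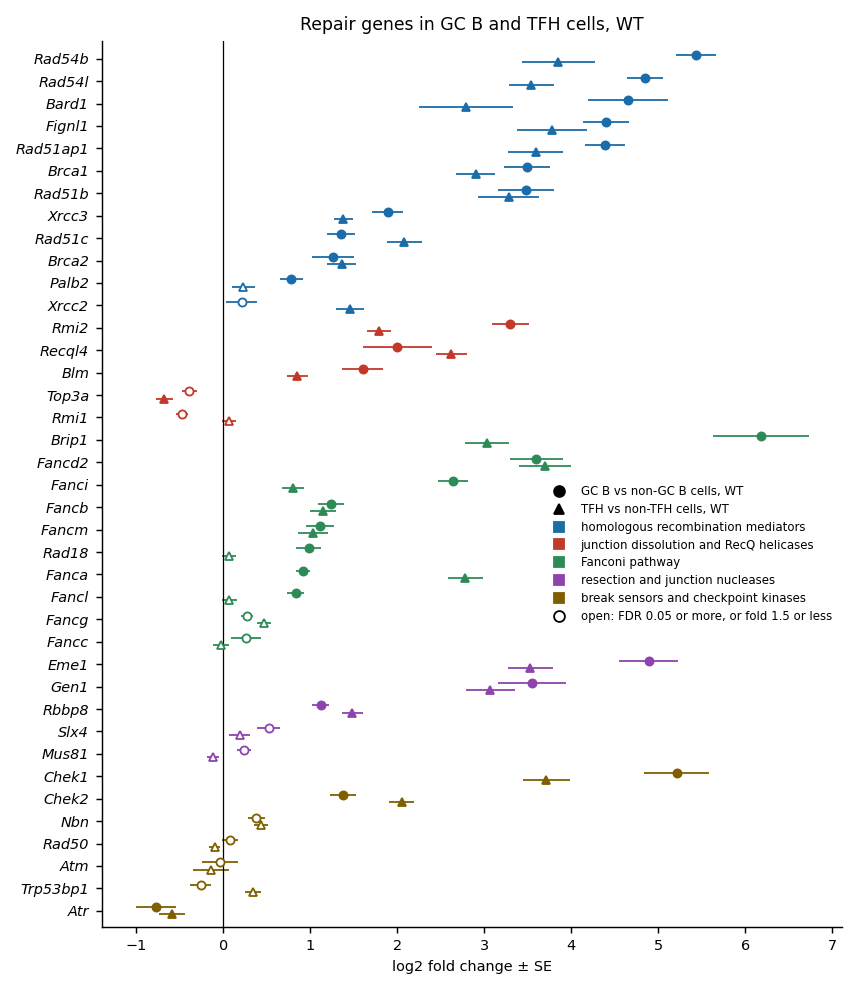
Log2 fold change of each of the 39 genes in WT GC B against non-GC B cells (circles) and WT TFH against non-TFH cells (triangles), with bars for the standard error, colors for the role and open symbols for genes that did not pass the thresholds. The mediators at the top reach 5.43 in B cells, Brip1 reaches 6.18, and most break sensors at the bottom lie near 0.

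The shift was uneven between roles. The mediators moved furthest, with 11 of 12 higher in GC B cells (median log2 fold change 3.49) and 11 of 12 higher in TFH cells (median 2.84). The Fanconi genes had 8 of 10 higher in GC B cells (median 1.05) and 6 of 10 higher in TFH cells (median 0.91). The nucleases had 3 of 5 higher in each (medians 1.12 and 1.48), and the dissolution genes 3 of 5 in each (medians 1.60 and 0.85). Of the 7 sensors and kinases, 2 were higher and 1 lower in each, with medians of 0.08 and 0.34. Differences between roles were not tested.

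Among the mediators, Rad54b, a motor protein that helps the bared strand to find and invade the matching sequence, changed most. It was at 20.2 to 29.3 CPM in WT GC B samples (median 26.2) and at 0.42, 0.449, 0.525, 0.819 and 0.96 CPM in WT non-GC B samples. It was at 10.9 to 18.4 CPM in WT TFH (median 14.1) and 0.159 to 1.91 CPM in WT non-TFH samples (median 1). The groups did not overlap in either lineage. Log2 fold changes of Rad54b were 5.43 (standard error, SE, 0.23) in GC B cells and 3.85 (SE 0.42) in TFH cells, with adjusted p = 2.62e-09 and 1.40e-06 from edgeR's quasi-likelihood test. Of the 31-base words in its transcripts, 35% also occur in Fsbp, a gene on the same strand inside it, so some reads could be assigned to either.

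Rad54l encodes the main RAD54 motor. Its WT GC B samples held 65.8 to 113 CPM (median 96.2), against 2.31, 3.05, 3.33, 3.84 and 4.3 CPM in WT non-GC B samples. WT TFH samples held 42.8 to 68.3 CPM (median 50.4) and WT non-TFH samples 2.36 to 7.96 CPM (median 4.46). No sample of the sorted GC B or TFH cells came near the comparison group. The log2 fold changes of Rad54l were 4.85 (SE 0.21, adjusted p = 2.44e-09, edgeR) in B cells and 3.54 (SE 0.26, adjusted p = 1.60e-08) in T cells. Lrrc41 lies over 15.4% of its exon bases on the opposite strand, and the strand setting of the counting is not given in the sources used here.

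Bard1, the obligate partner of BRCA1, rested on few counts outside GC B and TFH cells. Its WT GC B samples were at 6.4 to 10.8 CPM (median 7.66), while WT non-GC B samples were at 0.107, 0.12, 0.164, 0.473 and 0.755 CPM, from 3 to 23 counts. WT TFH samples were at 3.82 to 7.87 CPM (median 4.14), above the 0 to 1.51 CPM of WT non-TFH samples (median 0.763). Log2 fold changes of Bard1 were 4.65 (SE 0.46) and 2.79 (SE 0.54), the widest errors among the mediators in both lineages. Brca1 itself had log2 fold changes of 3.49 (SE 0.26) and 2.90 (SE 0.22).

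The other mediators followed the same direction at different sizes. Fignl1, an ATPase that acts late in recombination, and Rad51ap1, which stimulates strand invasion, had log2 fold changes of 4.40 and 4.39 in B cells and 3.78 and 3.59 in T cells. Among related genes whose products act together in strand invasion, Rad51b was at 3.48 and 3.28, Rad51c at 1.35 and 2.08, and Xrcc3 at 1.89 and 1.38. Brca2, which prepares the bared strand for invasion, was higher by 1.26 and 1.36. Palb2, which bridges BRCA1 and BRCA2, was higher in GC B cells (0.78) but had a log2 fold change of 0.23 in TFH cells (adjusted p = 0.121, edgeR). Xrcc2 was the reverse, at 1.46 in TFH cells and 0.21 in GC B cells (adjusted p = 0.340). Per kilobase of exon, Fignl1 was the most abundant of the 39 genes in WT GC B cells, with a mean level of 32.9 CPM per kb, and Brca2 the lowest in WT TFH cells, at 0.777 CPM per kb.

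**Figure D2:**
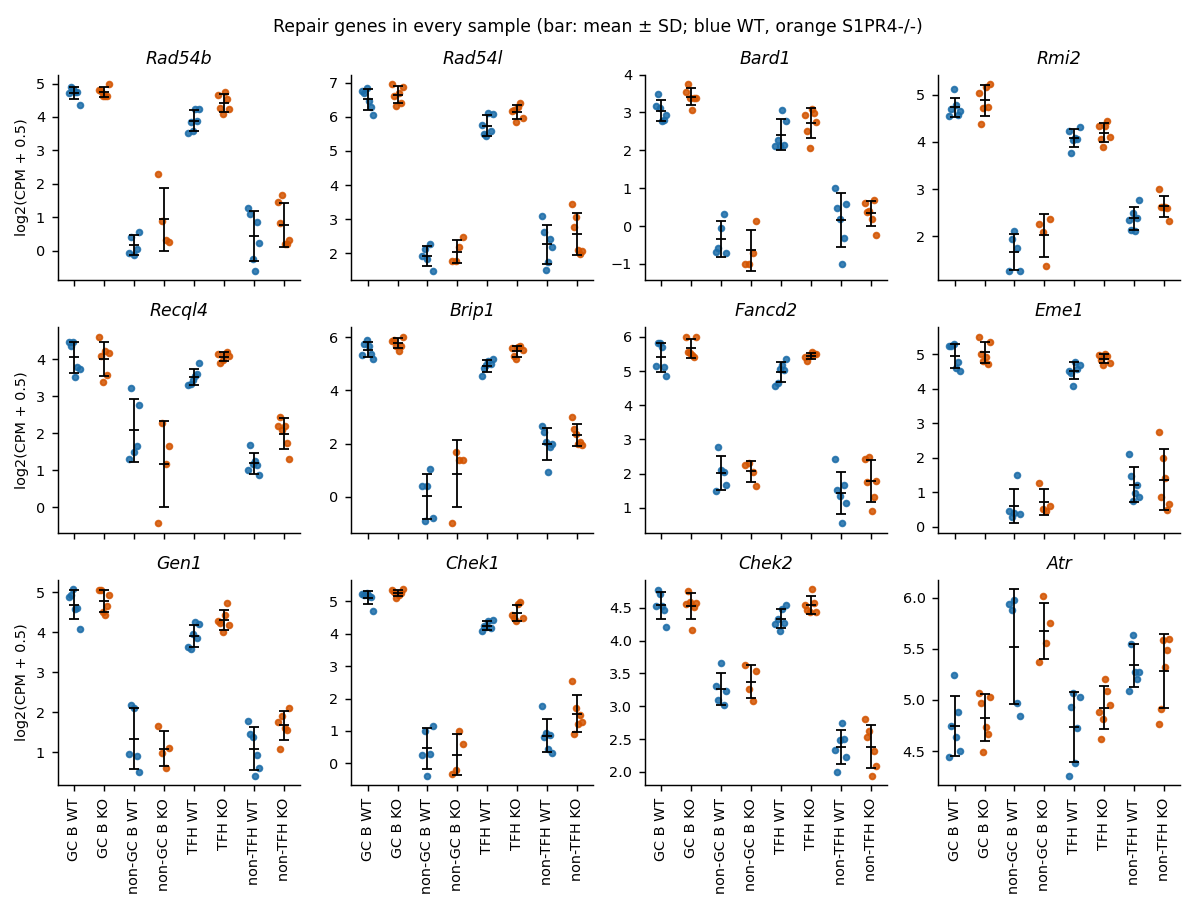
Level of 12 genes in every sample, as log2(CPM + 0.5), with bars for mean and SD, blue points for WT and orange points for S1PR4-/- (KO). In 11 panels, of genes chosen for large changes in WT GC B cells, the GC B or TFH samples lie above the comparison samples of the same lineage and genotype. Such separation was not counted over all genes. Atr has lower means in GC B and TFH cells, but its groups overlap in WT B cells and in S1PR4-/- T cells.

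Genes that part joined DNA molecules were divided. Rmi2, a subunit of the complex in which the helicase BLM and the topoisomerase TOP3A dissolve crossed strands, stood at 22.9 to 34.1 CPM in WT GC B samples (median 25) and at 1.92, 1.92, 2.86, 3.34 and 3.81 CPM in WT non-GC B samples. In T cells it stood at 13 to 19.4 CPM in WT TFH (median 16.4) and 3.84 to 6.35 CPM in WT non-TFH samples (median 4.67). The groups were apart in both lineages. Its log2 fold changes were 3.30 (SE 0.21, adjusted p = 5.11e-08, edgeR) and 1.79 (SE 0.14, adjusted p = 3.70e-08).

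Recql4, a helicase that also takes part in starting replication, was at 11 to 21.6 CPM in WT GC B samples (median 16.5) and varied among WT non-GC B samples, at 1.95, 2.29, 2.66, 6.26 and 8.78 CPM. WT TFH samples were at 9.4 to 14.4 CPM (median 10.7) and WT non-TFH samples at 1.31 to 2.72 CPM (median 1.71). Even the highest non-GC B sample was below the lowest GC B sample. Log2 fold changes were 2.00 (SE 0.40) in B cells and 2.62 (SE 0.18) in T cells. Blm was higher by 1.60 and 0.85.

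The remaining subunits of the BLM complex did not rise. Top3a was at 29.9 to 39.5 CPM in WT TFH samples (median 34.9) and at 49.8 to 66.3 CPM in WT non-TFH samples (median 54.9), without overlap, a log2 fold change of -0.68 (SE 0.10, adjusted p = 1.64e-05, edgeR). In B cells it was at 35.6 to 43.7 CPM in WT GC B samples and 47.2, 55.5, 58, 58.7 and 60.7 CPM in WT non-GC B samples, a log2 fold change of -0.39 that did not pass the fold threshold. Rmi1 was at 65 to 77.8 CPM in WT GC B samples (median 70.7), all below the 94.4, 94.9, 103, 107 and 116 CPM of WT non-GC B samples. Its log2 fold change there was -0.48 (adjusted p = 4.37e-05), also within the fold threshold. In T cells the Rmi1 groups overlapped, at 46 to 60.2 CPM in WT TFH and 46.5 to 59.5 CPM in WT non-TFH samples. Of the 31-base words in Rmi1 transcripts, 25.4% also occur in other genes, so some reads could be assigned elsewhere.

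Of the Fanconi genes, Brip1 had the widest range. It encodes the helicase FANCJ, which binds BRCA1. WT GC B samples held 36 to 58.9 CPM (median 45.8), and WT non-GC B samples 0.0328, 0.0711, 0.809, 0.841 and 1.54 CPM. WT TFH samples held 22.7 to 35.6 CPM (median 30.9) and WT non-TFH samples 1.4 to 5.79 CPM (median 3.57). Neither pair overlapped. The log2 fold changes of Brip1 were 6.18 (SE 0.55, adjusted p = 8.08e-07, edgeR) and 3.03 (SE 0.25, adjusted p = 6.53e-08).

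Fancd2 and Fanci encode the paired proteins that the Fanconi ligase marks with ubiquitin. Fancd2 was at 28.3 to 56.5 CPM in WT GC B (median 43.2) and 2.28, 2.7, 3.61, 3.83 and 6.42 CPM in WT non-GC B samples, and at 23.3 to 40.4 CPM in WT TFH (median 32.5) and 0.953 to 4.85 CPM in WT non-TFH samples (median 2.19). Fanci was at 45 to 77.6 CPM in WT GC B (median 57.4) and 8.28, 8.93, 10.3, 10.6 and 13.1 CPM in WT non-GC B samples, and at 31.3 to 50.3 CPM in WT TFH (median 42.6) and 17.9 to 29.1 CPM in WT non-TFH samples (median 24.6). Both genes kept the groups apart in both lineages. Fancd2 had log2 fold changes of 3.60 (SE 0.30) in B cells and 3.70 (SE 0.30) in T cells. Fanci had 2.64 (SE 0.17) and 0.80 (SE 0.13), and Polg lies over 16% of its exon bases on the opposite strand.

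The Fanconi core complex carries out that marking. In B cells Fanca, Fancb, Fancm and Fancl, the ligase subunit, were higher by 0.92, 1.24, 1.11 and 0.83 on the log2 scale. In T cells Fanca, Fancb and Fancm were higher by 2.78, 1.15 and 1.03, while Fancl had 0.07. Fancc and Fancg passed in neither WT comparison, with log2 fold changes of 0.26 and 0.27 in B cells and -0.03 and 0.47 in T cells. Rad18, a ubiquitin ligase of the clamp PCNA at stalled forks, was at 58.8 to 91.4 CPM in WT GC B samples (median 80.2) and 32.4, 38.5, 38.9, 49.1 and 49.6 CPM in WT non-GC B samples, a log2 fold change of 0.98 (SE 0.14). In T cells its groups overlapped, at 57.8 to 77.9 CPM in WT TFH and 57.1 to 72.1 CPM in WT non-TFH samples.

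Among the nucleases, Eme1, the partner that gives MUS81 its activity, was at 22.6 to 38.6 CPM in WT GC B (median 32) and 0.721, 0.782, 0.814, 0.869 and 2.3 CPM in WT non-GC B samples. It was at 16.5 to 27.1 CPM in WT TFH (median 23) and 1.16 to 3.8 CPM in WT non-TFH samples (median 1.64). Eme1 was thus higher in each sorted sample, by 4.89 (SE 0.34, adjusted p = 1.04e-07, edgeR) and 3.53 (SE 0.26, adjusted p = 1.88e-08) on the log2 scale. Lrrc59 and Mrpl27 lie over 10.7% of its exon bases on the opposite strand. Mus81 itself had log2 fold changes of 0.24 and -0.12. Gen1, which cuts crossed strands without that pair, was at 16.3 to 33.3 CPM in WT GC B (median 26.4) and 0.924, 1.38, 1.44, 3.81 and 4.03 CPM in WT non-GC B samples, and at 11.4 to 18.5 CPM in WT TFH (median 14.5) and 0.821 to 2.93 CPM in WT non-TFH samples (median 1.76). Its groups did not overlap, with log2 fold changes of 3.55 (SE 0.39) and 3.07 (SE 0.28). Rbbp8, which encodes the resection factor CtIP, was higher by 1.12 and 1.48, and the scaffold gene Slx4 had 0.52 and 0.19 and passed in neither.

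Among the break sensors and checkpoint kinases, Chek1 and Chek2 rose in both WT comparisons and Atr fell. Chek1, the kinase that ATR activates, was at 25.6 to 37.6 CPM in WT GC B (median 35.5) and 0.263, 0.689, 0.722, 1.51 and 1.74 CPM in WT non-GC B samples, and at 16.3 to 21.1 CPM in WT TFH (median 18.1) and 0.736 to 2.93 CPM in WT non-TFH samples (median 1.29). Log2 fold changes of Chek1 were 5.21 (SE 0.37, adjusted p = 1.30e-07, edgeR) and 3.71 (SE 0.27, adjusted p = 1.78e-08). Chek2, the kinase that ATM activates, was at 17.9 to 26.9 CPM in WT GC B (median 22.6) and 7.62, 8, 8.89, 9.35 and 12.1 CPM in WT non-GC B samples, and at 17.2 to 22.7 CPM in WT TFH (median 19.1) and 3.48 to 6.22 CPM in WT non-TFH samples (median 4.8). Neither kinase had overlapping groups. Chek2 was higher by 1.38 (SE 0.15) and 2.05 (SE 0.14).

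Atr, the kinase above Chek1, went the other way. It was at 21.3 to 37.5 CPM in WT GC B samples (median 25.4) and 28.2, 30.8, 58.2, 60.9 and 62.3 CPM in WT non-GC B samples, groups that overlapped. It was at 18.6 to 33 CPM in WT TFH samples (median 28), all below the 33.6 to 49.3 CPM of WT non-TFH samples (median 38.2). The log2 fold change of Atr was -0.78 in B cells (SE 0.23, adjusted p = 0.00933, edgeR) and -0.59 in T cells (SE 0.15, adjusted p = 0.00225). In S1PR4-/- cells it was -0.80 in B cells and -0.37 in T cells, the latter within the fold threshold. The WT T cell value lies close to the fold threshold, and leaving out any one of 5 WT samples brought it to between -0.51 and -0.58, below that threshold. RLE size factors in place of TMM, or DESeq2 in place of edgeR, each brought it to -0.58. With a score of B cell markers as a covariate it was -0.51 and missed the FDR too (adjusted p = 0.0848, edgeR). Nbn, a subunit of the break-sensing MRN complex, was at 58.1 to 69.7 CPM in WT TFH samples (median 64.9), all above the 40.8 to 57.8 CPM of WT non-TFH samples (median 48.7). Its log2 fold change was 0.43 in WT T cells and 0.38 in WT B cells, both within the fold threshold, and it was higher in S1PR4-/- GC B cells by 0.61. Atm, Rad50 and Trp53bp1, a factor that holds back resection, did not pass in any of the 4 comparisons, and their WT log2 fold changes lay between -0.26 and 0.34.

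The mean level was highest in WT GC B cells for 31 of the 39 genes among the 4 WT populations. The exceptions were Rmi1 and Atr, highest in non-GC B cells, Fancg, Nbn and Trp53bp1, highest in TFH cells, and Top3a, Mus81 and Atm, highest in non-TFH cells. In S1PR4-/- mice GC B cells were highest for 28 genes. This count orders group means, and neighbouring means were not all apart beyond their spread. It was not made over all genes, so no background share stands beside it.

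The size of the shift differed between lineages. The difference between the GC B shift and the TFH shift in WT cells passed an FDR of 0.05 in edgeR's quasi-likelihood test for 20 of the 39 genes, 12 larger in B cells and 8 smaller, where 41.7% of all 15101 genes tested passed. B cells and T cells were sampled on different days, so lineage and day cannot be told apart. For Brip1 the difference was 3.09 log2 units (SE 0.57, adjusted p = 1.34e-04), with the lowest level of the 4 WT populations in non-GC B cells. For Fanci it was 1.77 (SE 0.21, adjusted p = 4.82e-07), and for Rmi2 1.45 (SE 0.24, adjusted p = 4.17e-05). Rad18 differed by 0.85 (SE 0.15, adjusted p = 1.09e-04).

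Fanca, a core complex subunit, had the largest difference in the other direction, at -1.92 (SE 0.22, adjusted p = 3.81e-07, edgeR). Its WT samples were at 52.6 to 60.7 CPM in GC B (median 54.4), 25.4, 30.3, 31.3, 32.6 and 32.8 CPM in non-GC B, 19.4 to 31.5 CPM in TFH (median 26.3) and 2.56 to 5.66 CPM in non-TFH cells (median 3.53). The Fanca levels of non-GC B and TFH cells overlapped, those of GC B cells lay above both, and those of non-TFH cells below both. Zfp276 lies over 10.5% of the exon bases of Fanca on the opposite strand. Xrcc2 differed by -1.32 (SE 0.25), Rad51c by -0.79 (SE 0.24), Chek2 by -0.74 (SE 0.20), Trp53bp1 by -0.67 (SE 0.15) and Rmi1 by -0.61 (SE 0.11). Genes of S phase, 12 with no member among the 39, had all 12 larger in B cells, with a median difference of 1.12.

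**Figure D3:**
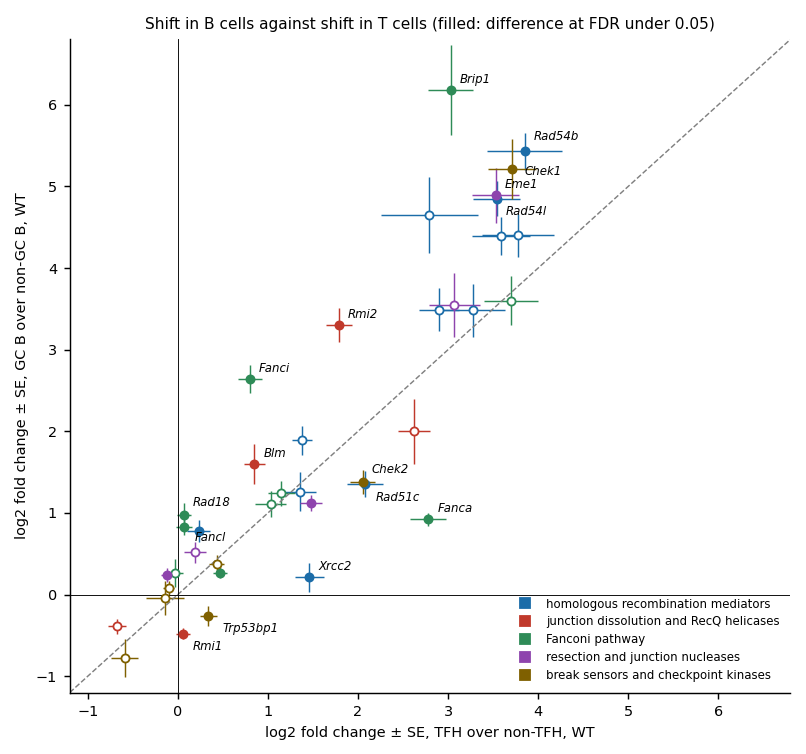
Log2 fold change in WT GC B cells (vertical axis) against that in WT TFH cells (horizontal axis) for the 39 genes, with bars for standard errors, a dashed line of equal shift and filled points where the difference passed an FDR of 0.05. Brip1, Fanci and Rmi2 lie above the line, and Fanca and Xrcc2 lie below it.

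Promoter sequences were taken from RefSeq (GRCm38.p6), which listed one for 30 of the 39 genes, from 250 bases before the first listed start to 50 after it. Both strands were searched for the E2F words TTTGGCGC, TTTCCCGC, TTTCGCGC and TTTGCCGC, which replication genes often carry, and for CCAAT, a box common to cell cycle promoters. A CCAAT box and an E2F word can share at most an edge letter, and none of the printed ones do. An E2F word was found in 5 of the 30 promoters (16.7%: Bard1, Brca2, Rad51c, Fancg and Chek2), in 2.32% of all 27025 promoters and in 8.36% of the 1077 genes that were higher in both WT comparisons. A CCAAT box was found in 16 (53.3%), in 37.9% of all promoters and in 49% of the genes higher in both. The word TTTGAA, the core of the CHR element of mitotic genes, was in 2 (6.67%: Bard1 and Eme1). It was in 18.1% of all promoters and in 19.1% of the genes higher in both. Among the 8982 genes tested in both WT comparisons, the shares were 4.39% for E2F words, 39.9% for CCAAT and 12.2% for TTTGAA. The 5 promoters printed here carry the most CCAAT boxes among the genes named above (Xrcc3 and Brip1), an E2F word (Brca2 and Chek2) or belong to the gene with the lowest adjusted p between lineages (Fanca). Each is the 200 bases before the first listed start, 5′ to 3′ on the gene's strand, with E2F words and CCAAT boxes (CCAAT or ATTGG) in capitals.
Brca2 at chr5:150522421-150522620, plus strand: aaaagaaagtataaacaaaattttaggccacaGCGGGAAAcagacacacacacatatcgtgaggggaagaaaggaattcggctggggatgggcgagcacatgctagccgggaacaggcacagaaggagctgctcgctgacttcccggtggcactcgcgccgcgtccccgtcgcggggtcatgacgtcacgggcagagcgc
Chek2 at chr5:110839783-110839982, plus strand: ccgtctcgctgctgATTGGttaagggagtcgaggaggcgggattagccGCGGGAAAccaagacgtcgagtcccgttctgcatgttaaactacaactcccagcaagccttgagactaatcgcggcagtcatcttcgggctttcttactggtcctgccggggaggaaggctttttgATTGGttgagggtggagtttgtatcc
Brip1 at chr11:86201194-86201393, minus strand: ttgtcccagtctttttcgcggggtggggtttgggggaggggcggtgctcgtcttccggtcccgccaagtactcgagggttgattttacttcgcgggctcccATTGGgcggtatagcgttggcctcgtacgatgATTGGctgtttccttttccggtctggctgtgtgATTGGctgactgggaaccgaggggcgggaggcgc
Xrcc3 at chr12:111813880-111814079, minus strand: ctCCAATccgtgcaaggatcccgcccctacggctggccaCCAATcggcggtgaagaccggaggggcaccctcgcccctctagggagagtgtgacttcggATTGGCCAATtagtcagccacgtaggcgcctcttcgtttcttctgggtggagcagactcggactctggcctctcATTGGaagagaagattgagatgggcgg
Fanca at chr8:123318577-123318776, minus strand: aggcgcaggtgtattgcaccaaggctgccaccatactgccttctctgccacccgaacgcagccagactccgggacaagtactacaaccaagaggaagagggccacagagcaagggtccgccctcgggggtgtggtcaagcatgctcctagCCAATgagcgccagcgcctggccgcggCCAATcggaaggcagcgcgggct
Brca2 and Chek2 hold their E2F word as GCGGGAAA, the reverse complement of TTTCCCGC, starting 168 and 152 bases before the start. Brip1 holds ATTGG at 99, 67 and 34 bases before the start. Xrcc3 holds 5 boxes in these 200 bases and a further box beyond them. Some of the genes also have a feature of position that their choice did not use. The start of another gene lies head to head within 1000 bases of 16 of the 39 (41%), at 30 bases for Fancd2 and Emc3 to 978 bases for Rad51b and Zfyve26, against 10.8% of 21938 protein-coding genes in GENCODE M21. That background includes genes not expressed in these cells, and no share was counted among the genes tested. A match is only a description of these letters and positions.

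The wider pathway was read from lists of genes outside the 39. Of 49 other homologous recombination, Fanconi and checkpoint genes tested, 17 were higher and 5 lower in WT GC B cells (median log2 fold change 0.23), and 14 were higher and 7 lower in WT TFH cells (median 0.06). These shares lie near the 47.8% and 43.2% of all genes that passed. Among those with the largest values in B cells were Clspn, which passes the ATR signal to CHEK1, Parpbp at 5.56, Dna2 at 4.53, Exo1 at 4.15 and Ube2t at 3.26. Clspn had 0 counts in all 5 WT non-GC B libraries, and its mean of 26.8 CPM in WT GC B cells was at least 252-fold higher than a floor of 3 counts per library. Of 10 end joining genes, Xrcc6 (0.63) and Lig4 (1.67) were higher and Paxx (-0.76) lower in WT GC B cells, and Dclre1c (1.08) was higher and Paxx (-0.62) lower in WT TFH cells. The list medians were 0.09 and -0.03.

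Markers of proliferation moved with these genes. All 12 S phase genes were higher in WT GC B cells (median 3.08) and in WT TFH cells (median 1.80), as were all 12 genes of G2 and mitosis (medians 5.95 and 4.36). The summed level of the 12 mediators, in CPM, was set against that of the 12 S phase genes in each sample. It came to a median of 8.67% in WT GC B, 9.37% in WT non-GC B and 8.26% in WT TFH samples, and to 4.44% in WT non-TFH samples. The 12 non-TFH samples of both genotypes lay between 3.92% and 5.69%, below all other samples, of which the lowest was at 7.20%. Non-GC B samples held less S phase RNA than the others, and their mediator share overlapped that of GC B samples. A sum of CPM weighs abundant genes most, so a like share does not mean that each mediator kept pace. Fignl1 was at 32.9 CPM per kb of exon in WT GC B cells and 1.63 in WT non-GC B cells, while Xrcc2 was at 3.07 and 2.8. The part of cell division in the shifts was not tested.

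**Figure D4:**
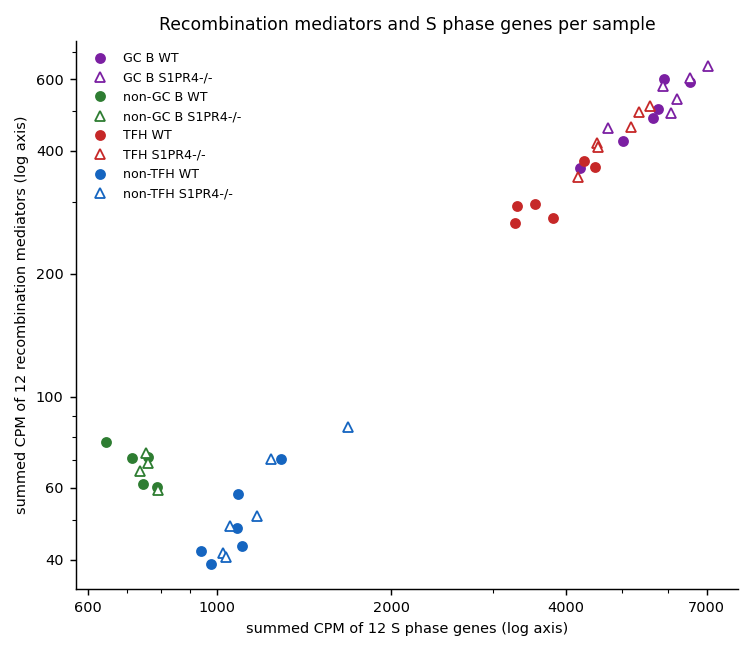
Summed CPM of the 12 recombination mediators against that of 12 S phase genes in each of the 45 samples, on log axes, with filled circles for WT and open triangles for S1PR4-/-. GC B and TFH samples lie at the upper right, non-GC B samples at 59.3 to 77.8 CPM of mediators, and non-TFH samples at 39.1 to 84.3 CPM with more S phase RNA.

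Markers of other cell types moved with the populations. B cell markers other than Ighm summed to 183 to 524 CPM in WT TFH samples and 66.9 to 117 CPM in WT non-TFH samples, against 7717 to 13036 CPM in WT GC B samples. In the WT TFH comparison 10 of the 12 B cell markers, Ighm included, were higher. With a score of these markers as a covariate, 25 genes were higher and 0 lower in WT TFH cells, since the log2 fold change of Top3a moved to -0.58 and that of Atr to -0.51, both below a 1.5-fold change. Atr also missed the FDR there (adjusted p = 0.0848, edgeR). T cell markers summed to 5.58 to 101 CPM over all B cell samples. Plasma cell markers summed to 4043 to 8886 CPM in WT GC B and 513 to 861 CPM in WT non-GC B samples, with 7 of 8 higher, and to 285 to 662 CPM in WT TFH and 117 to 165 CPM in WT non-TFH samples, with 6 of 7 higher. Myeloid markers summed to 44.2 to 218 CPM in WT GC B, 7.57 to 54.9 CPM in WT non-GC B, 35.7 to 95.4 CPM in WT TFH and 12.6 to 42.9 CPM in WT non-TFH samples, with 4 of 5 higher in each lineage. In S1PR4-/- GC B replicate 3 the plasma cell markers reached 17946 CPM, and leaving that sample out gave 31 higher genes and 1 lower one in S1PR4-/- GC B cells. Their part in the results for other genes was not tested.

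The S1PR4-/- and WT samples were compared within each population. In TFH cells 1 of the 39 genes passed both thresholds, Fignl1, where 0.496% of all 13495 genes tested passed. All 39 genes had a positive log2 fold change there, with a median of 0.31 and a range of 0.03 to 0.62, while the median of all genes was 0.00. At an unadjusted p under 0.05 there were 26 of the 39, against 2586 of all 13495 genes, and at an FDR under 0.05 there were 5, against 190 of all genes. All 12 S phase genes were also positive, with a median of 0.37, and so were all 12 genes of G2 and mitosis, with a median of 0.32.

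Fignl1 was at 89.9 to 140 CPM in WT TFH samples (median 102) and 125 to 200 CPM in S1PR4-/- TFH samples (median 169), groups that overlapped, with 5 of 6 S1PR4-/- samples above all WT samples. Its log2 fold change was 0.62 (SE 0.13, adjusted p = 0.0382, edgeR). Recql4 was at 9.4 to 14.4 CPM and 14.3 to 17.8 CPM (log2 fold change 0.55, SE 0.11, adjusted p = 0.0311, edgeR). These and the next genes had folds of at most 1.5 apart from Fignl1. Brip1 was at 22.7 to 35.6 CPM and 35.4 to 49.9 CPM (0.55, SE 0.11, adjusted p = 0.0350, edgeR). Nbn was at 58.1 to 69.7 CPM and 74.7 to 84.4 CPM (0.29, SE 0.05, adjusted p = 0.0274, edgeR). Xrcc3 was at 16.1 to 21 CPM and 21.2 to 30.9 CPM (0.40, SE 0.09, adjusted p = 0.0499, edgeR). Nbn and Xrcc3 had every S1PR4-/- sample above every WT sample, while Recql4 and Brip1 overlapped by 1 sample.

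The genotype calls in TFH cells depended on the fit. The count of genes past both thresholds was 0 with all 8 groups in 1 fit, 0 with the B cell marker score as a covariate and 5 with sex as a covariate, an alternative chosen after seeing the data. It ran from 0 to 3 when single samples were left out, with 0 without WT replicate 1, 2, 3 or 5 or S1PR4-/- replicate 1, 4, 5 or 6, 3 without WT replicate 6 and 2 without S1PR4-/- replicate 3. The WT TFH group had 5 of 6 samples with high Xist and the S1PR4-/- TFH group 2 of 6. With sex in the fit the median log2 fold change of the 39 genes was 0.42, with 37 genes positive, and the 5 genes past both thresholds were Rad51ap1, Rad54b, Fignl1, Recql4 and Brip1. B cell markers without Ighm summed to 164 to 316 CPM in S1PR4-/- and 183 to 524 CPM in WT TFH samples, and 11 of the 12 markers had a negative log2 fold change (median -2.04). Of 7 plasma cell markers tested, Jchain (-3.64), Mzb1 (-4.35) and Derl3 (-1.88) were lower in S1PR4-/- TFH cells. With the B cell marker score in the fit the median was 0.17, and 34 genes were positive. Fignl1 was then at 0.29, Recql4 at 0.39, Brip1 at 0.32, Nbn at 0.26 and Xrcc3 at 0.38, with adjusted p from 0.192 for Nbn to 0.370 for Fignl1 in edgeR's quasi-likelihood test. DESeq2 called Fignl1 alone past both thresholds.

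**Figure D5:**
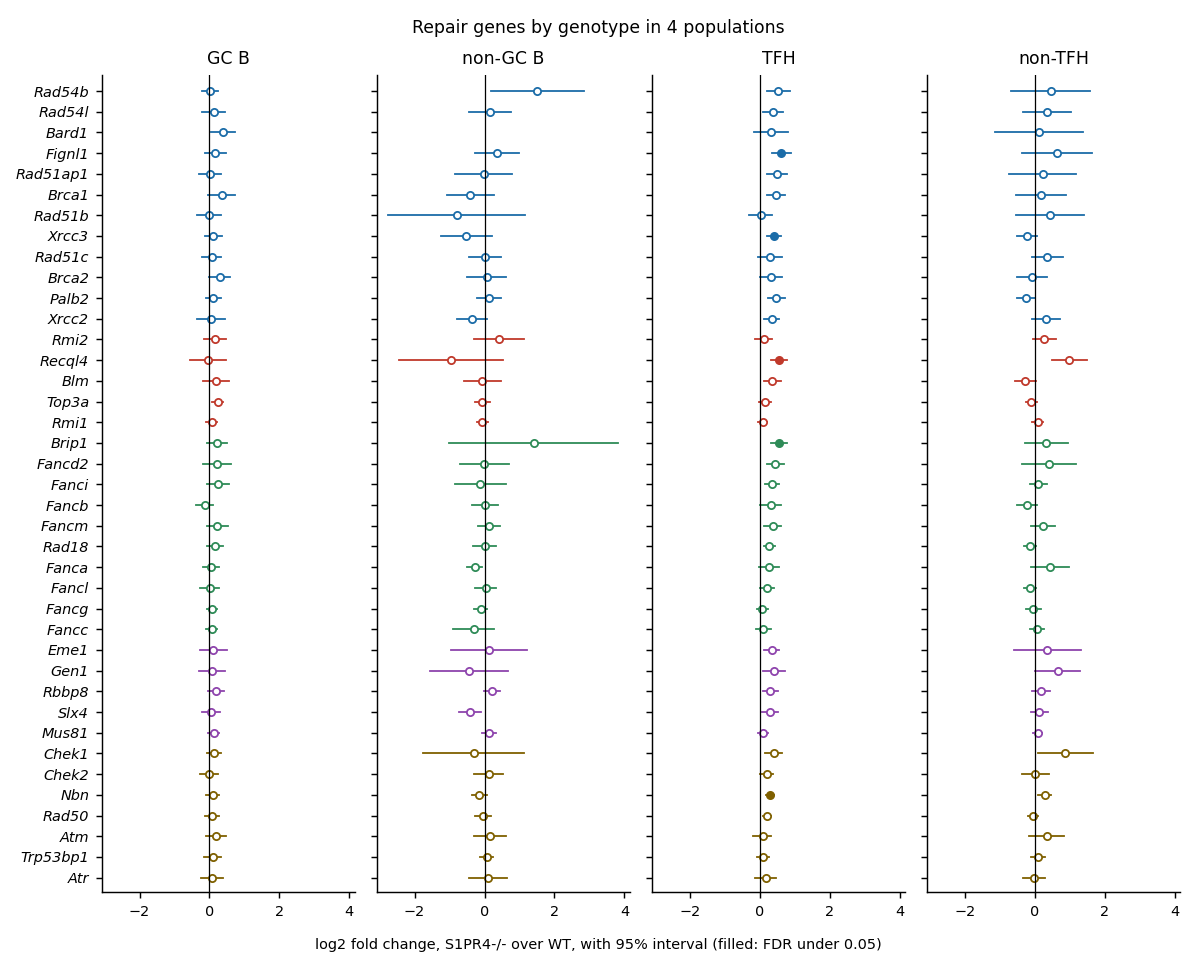
Log2 fold change of S1PR4-/- over WT for each gene in the 4 populations, with 95% intervals and filled points at an FDR under 0.05. In TFH cells all points lie right of 0, in GC B cells they lie between -0.14 and 0.38, and intervals are wide for scarce genes in non-GC B and non-TFH cells.

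In the other populations none of the genes passed in edgeR's quasi-likelihood test. In GC B cells the count was 0 of 39 (0.0612% of all genes tested passed), with 2 at an unadjusted p under 0.05 (540 of all 13070 genes), Bard1 (0.38) and Top3a (0.23), a median log2 fold change of 0.11, and 0 with DESeq2 or limma. In non-GC B cells it was 0 of 38 (0.0537% of all genes passed), with 3 at an unadjusted p under 0.05 (593 of all 13038 genes), Rad54b (1.5), Fanca (-0.27) and Slx4 (-0.41), a median of 0.00, and 0 with DESeq2 or limma. Bard1 did not pass the filter on low counts there. In non-TFH cells it was 0 of 39 (0.114% of all genes passed), with 4 at an unadjusted p under 0.05 (1486 of all 13197 genes, a similar share), a median of 0.18, 0 with limma and 1 with DESeq2. That gene was Recql4, at 1.95 to 4.86 CPM in S1PR4-/- and 1.31 to 2.72 CPM in WT non-TFH samples, a log2 fold change of 0.99 (SE 0.24, adjusted p = 0.10, edgeR). High Xist was found in 5 of 6 WT and 2 of 6 S1PR4-/- non-TFH samples as well, and with sex in the fit the median there was 0.08.

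A missed threshold does not show equal levels, and the 95% intervals bound the differences. In GC B cells they lay within a 2-fold change either way (1 log2 unit) for 39 of 39 genes, and in TFH cells also for 39 of 39. In non-GC B cells they did so for 28 of 38 genes and in non-TFH cells for 28 of 39, and the interval of Brip1 in non-GC B cells reached 3.83. Brip1 there was at 0, 2.13, 2.14 and 2.71 CPM in S1PR4-/- samples.

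Whether the population shift itself differed by genotype was tested as an interaction. In B cells 0 of 39 genes passed an FDR of 0.05 in edgeR's quasi-likelihood test (0% of all 14490 genes tested passed), with 5 at an unadjusted p under 0.05 (664 of all genes), and 0 of the 39 with DESeq2 or limma. In T cells 0 of 39 passed (0.0139% of all genes passed), with 8 at an unadjusted p under 0.05 (1325 of all 14401 genes), 0 with limma and 3 with DESeq2. These 3 were Palb2, Xrcc3 and Rad18, with edgeR interaction values of 0.72, 0.63 and 0.43 log2 units (adjusted p = 0.108, 0.180 and 0.180). Palb2 was at 15.6 to 21.1 CPM in S1PR4-/- TFH samples, all above the 9.62 to 15.4 CPM of WT TFH samples, while its non-TFH groups overlapped at 7.4 to 10.5 CPM and 9.37 to 13.2 CPM.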

How the data were processed

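RNA was sequenced from 45 sorted samples in 8 groups, taken from the labels, after capture of mRNA on oligo-dT beads and paired-end stranded library preparation. Per the methods and the submitters' processing notes, adapters were cut with cutadapt 2.10, STAR 2.5.3 placed reads on mm10, duplicates were handled with Picard, and the authors deposited expected counts per gene from RSEM 1.3.0, not scaled for depth or length. Of these values 8.83% were not whole, and they were rounded. The methods name GENCODE M30, while 55423 of the 55450 symbols are in GENCODE M21, which gave exons and positions. The table names 111 symbols more than once. Rows were filtered with filterByExpr, normalized by TMM and tested with edgeR 4.0.16 (R 4.3.3, quasi-likelihood test, Benjamini-Hochberg FDR). A gene passed with FDR below 0.05 and more than a 1.5-fold difference, an interaction with FDR below 0.05. The fit was first tested on simulated counts for WT GC B against non-GC B cells and for S1PR4-/- against WT TFH cells. The WT difference between lineages was simulated too, and the other comparisons were not. CPM values use TMM factors over all samples, and fold changes use those of each fit.

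The genes and lists were chosen with earlier results of these data known. Sample values are given for the largest changes in each role, for genes that went against most, for genes with an FDR under 0.05 by genotype and for the 5 lowest adjusted p between lineages. Alternatives were RLE factors, no low-count filter, DESeq2 1.42.0, limma 3.58.1 (voom), a replicate block, all groups in 1 fit, no fold threshold, a B cell marker score, leaving out each sample and, chosen after seeing the data, sex by Xist and Ddx3y counts. Same-numbered S1PR4-/- TFH and non-TFH samples deviated together from their group means (r from 0.119 to 0.185 in 6 of 6 pairs). In 6 of 6 pairs the same-numbered sample was also the best match. The reported values there come from the unpaired fit, and with the replicate block 27 genes were called. Promoters came from RefSeq (GRCm38.p6), and no reads were reanalysed. Columns of other samples were not present. The values of 1 gene of the wider pathway list are not reported here. The total per sample sets the counting error, and genes under about 1 CPM rest on few counts.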

Additional observations from a re-analysis of the deposited data

Results flagged for a closer look

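Among 20 named genes, 160 sets of values from one gene in one group were examined for a sample far from the others, and 10 were found, where chance gives about 1 in 20. WT GC B replicate 6 was low for Rad54b (20.2 CPM) and Chek1 (25.6 CPM), WT GC B replicate 3 was high for Rmi2 (34.1 CPM) and WT GC B replicate 2 high for Fanca (60.7 CPM). Eme1 was high in WT non-GC B replicate 4 (2.3 CPM) and in S1PR4-/- non-GC B replicate 1 (1.93 CPM). In S1PR4-/- non-GC B cells Top3a was low in replicate 1 (45.9 CPM) and Xrcc3 low in replicate 4 (1.47 CPM). Chek1 was high in replicate 1 of the non-TFH cells of both genotypes, at 2.93 CPM in WT and 5.38 CPM in S1PR4-/-. These 2 samples also had the highest summed G2 and mitosis markers of their groups, at 237 and 374 CPM, and WT GC B replicate 6 had the lowest of its group, at 1918 CPM.

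The WT shift in B cells differed from that in T cells, by edgeR's interaction term, for 11 of the 20 named genes. Of all 15101 genes tested, 41.7% passed the same FDR. Fanca, Fanci, Rmi2, Rmi1 and Rad18 were named for their low adjusted p in this same test. Most of the others were named for a large shift in WT GC B cells, so the count is no separate result. In log2 units the difference was 3.09 for Brip1, 1.77 for Fanci, 1.51 for Rad54b, 1.45 for Rmi2, 1.43 for Chek1, 1.29 for Eme1, 1.24 for Rad54l and 0.85 for Rad18. It was -1.92 for Fanca, -0.74 for Chek2 and -0.61 for Rmi1.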

How the results depend on the processing

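The counts of genes past the thresholds in the population comparisons held within 1.5 times under all alternatives. They ran from 28 to 34 (reported 28) in WT B cells, 29 to 35 (32) in S1PR4-/- B cells, 25 to 30 (27) in WT T cells and 27 to 35 (27) in S1PR4-/- T cells, and the difference between lineages from 15 to 21 (20). Leaving out single samples gave 28 to 29, 30 to 32, 26 to 27, 26 to 27 and 17 to 20. For S1PR4-/- against WT TFH cells the reported 1 became 0 with all 8 groups in 1 fit or the B cell marker score, 5 with sex as a covariate or no fold threshold, and 0 to 3 when single samples were left out. DESeq2 moved 0 to 1 in non-TFH cells and 0 to 3 in the T cell interaction. No named gene's called result changed direction, but of the 39 genes positive in S1PR4-/- TFH cells 34 were positive with the B cell marker score and 37 with sex. Of the named results under alternatives, 229 kept their side of the threshold and 17 did not, and 443 and 43 with single samples left out. The causes were not tested.

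Over all genes, the reported 67 in TFH cells became 11 with the B cell marker score, 190 with no fold threshold and 15 to 117 with single samples left out. In non-TFH cells 15 ran from 7 with sex to 56 with DESeq2, in non-GC B cells 7 reached 25 with all groups in 1 fit, in GC B cells 8 reached 14 with DESeq2, and the interactions reached 6 in B cells and 76 in T cells with DESeq2, from 0 and 2. With the replicate block the same counts over the 39 genes were 29, 30, 27 and 27 in the 4 population comparisons, and 1 in TFH cells by genotype. Only the S1PR4-/- T cells met the rule for pairing. The correlations of same-numbered samples ran from 0.033 to 0.194 in WT T cells and -0.005 to 0.139 in WT B cells. They ran from -0.069 to 0.037 in S1PR4-/- B cells and -0.155 to 0.201 between genotypes. In these comparisons the number may mark nothing shared. Genes under 1 CPM in a group rest on few counts, and non-GC B cells had the fewest samples.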
